A study of Mus musculus with 4 samples.

Results

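The genes described here are 10 components of the Notch pathway in mouse T helper 17 (Th17) cells, taken from 50600 genes counted by RNA-seq. They are the receptor genes Notch1, Notch2, Notch3 and Notch4, the DNA-binding factor gene Rbpj, the target genes Hes1, Dtx1 and Nrarp, and the ligand genes Jag1 and Jag2. Each symbol was matched to 1 Ensembl identifier, and all 10 were found. The data hold 4 libraries of 1 group, Th17 primary cells of the C57BL/6NJ strain made by differentiation of CD4 T cells in culture, which the labels number as biological replicates 1 to 4 with 1 donor entry for all. Sex and age are not given, and no other cell type, treatment or genotype was included. The assay is labelled total RNA-seq, while the library protocol is named for poly(A) RNA. A time of 24 hours stands in the headers of the deposited tables and in none of the labels. The labels do not say which libraries came from separate animals. In bulk RNA, fewer cells with a transcript and less transcript per cell cannot be told apart.

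Notch receptors are single-pass membrane proteins that are cut after binding a Jagged or Delta-like ligand on a neighbouring cell. The freed intracellular part enters the nucleus, joins RBPJ and Mastermind-like coactivators on DNA, and turns RBPJ from a repressor into an activator. In the T lineage, Notch1 is needed for commitment in the thymus, and in mature CD4 T cells Notch signals take part in T helper differentiation.

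Total counts ran from 19332509 in replicate 2 to 48558772 in replicate 4, and levels are given as TPM, the counts per merged exon length of each gene scaled to the same sum in every library. The markers of the labelled cells Cd3e, Cd4, Il17a, Il17f, Il23r and Ccr6 all lay above 1 TPM. Those of the Th17 state were lowest in replicate 2, the library of lowest depth. Il17f was at 557, 391, 501 and 521 TPM in replicates 1 to 4 and varied beyond the dispersion trend described further on (edgeR adjusted p = 2.14e-06). Il23r was at 14.9, 10.5, 15.4 and 16.7 TPM, Ccr6 at 22.1, 15.5, 20.4 and 26.1 TPM and Il17a at 53.3, 40.7, 41.2 and 49.0 TPM, and these 3 were not called. The Y-linked gene Ddx3y was at 77.8, 58.9, 0.240 and 0.0925 TPM in replicates 1 to 4, and Xist, the RNA of the inactive X chromosome, at 0.916, 1.01, 154 and 152 TPM, so replicates 1 and 2 stood apart from 3 and 4 in these genes and the 4 libraries did not come from a single animal. Within each of these pairs, nothing in the labels tells separate animals from repeated libraries.

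Notch1 and Notch2 made up nearly all Notch receptor transcripts of these cells, with Notch3 and Notch4 near 0. To show the DNA before the start of an expressed and of a nearly silent receptor gene, bases -250 to -31 from each RefSeq start site are given for GRCm38, the build also called mm10, read along the gene's strand. Capitals mark GGGCGG and its reverse complement, the GC box to which SP family factors bind.

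Notch1, chr2:26503853-26504072, minus strand: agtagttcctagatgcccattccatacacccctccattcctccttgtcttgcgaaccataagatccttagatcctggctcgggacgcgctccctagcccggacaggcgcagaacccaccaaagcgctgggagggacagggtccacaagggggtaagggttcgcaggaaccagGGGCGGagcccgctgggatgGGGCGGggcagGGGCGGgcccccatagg

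Notch2, chr3:98013288-98013507, plus strand: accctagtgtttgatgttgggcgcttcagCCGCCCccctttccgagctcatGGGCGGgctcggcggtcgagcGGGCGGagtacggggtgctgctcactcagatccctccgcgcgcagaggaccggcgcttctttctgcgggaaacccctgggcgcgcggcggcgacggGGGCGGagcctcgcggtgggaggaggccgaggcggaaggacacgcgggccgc

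Notch3, chr17:32166921-32167140, minus strand: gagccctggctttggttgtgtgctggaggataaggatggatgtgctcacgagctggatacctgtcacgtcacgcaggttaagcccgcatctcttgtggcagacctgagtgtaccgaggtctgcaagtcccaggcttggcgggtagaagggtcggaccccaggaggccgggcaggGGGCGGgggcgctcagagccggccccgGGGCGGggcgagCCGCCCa

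Notch4, chr17:34564045-34564264, plus strand: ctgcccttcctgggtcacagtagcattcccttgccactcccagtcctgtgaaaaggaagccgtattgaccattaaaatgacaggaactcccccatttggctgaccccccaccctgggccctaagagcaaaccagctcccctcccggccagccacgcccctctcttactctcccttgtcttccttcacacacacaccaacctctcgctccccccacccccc

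The 220-base stretches of Notch1, Notch2 and Notch3 hold 12, 30 and 15 CG dinucleotides and 3, 4 and 3 GC box matches, while that of Notch4 holds 4 CG dinucleotides and no match. The median over all 32851 RefSeq start sites was 5 CG dinucleotides, and 28.5% of all such stretches hold the GC box on either strand. Notch3, which was near 0, thus resembles Notch1 in both features. The core RBPJ motif TGGGAA, searched on both strands, is in 19.4% of all stretches and in none of the 4 receptors'. Of the 9 genes with a start site in the table, only Rbpj had a match to it, in both of its annotated stretches, and no stretch was available for Hes1. One of these matches begins at base -149 from an Rbpj start and is in capitals in the 30 bases at chr5:53590175-53590204, plus strand: cgtcggaatgaatgaaaaaggcTGGGAAcc. A match in these letters does not show that a factor binds. The RefSeq starts used for Notch1 and Rbpj lie inside the longer GENCODE spans of these genes.

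Notch1 (ENSMUSG00000026923, mm10 chromosome 2, 26457903 to 26516663) was at 91.9, 89.1, 89.6 and 85.8 TPM in replicates 1 to 4. The 4 libraries lay close together, with a mean of 89.1 ± 2.49 TPM (SD, n = 4) from 54314 counts, and the gene ranked 2282nd of 21764 protein-coding genes. Notch2 (ENSMUSG00000027878, chromosome 3, 98013527 to 98150361) was at 56.7, 47.1, 51.7 and 52.5 TPM. It was lower than Notch1 in each library, with a mean of 52.0 ± 3.95 TPM, and replicate 2 was its lowest, as it was for Il17f, Il23r, Ccr6 and Il17a, whose part in this was not tested. Counted on either strand, Notch1 shares 9.11% of its 50-base words with other genes, Notch2 3.755% and Notch3 4.93%. The gene that shares words with Notch2 is Gm42820, which also overlaps 541 of its exon bases on the same strand. Notch1 and Notch3 have no exon base overlapped on the same strand. How much of the sharing touches stranded counts was not tested, so these levels carry that uncertainty. The level of Notch1 was 1.62 to 1.89 times that of Notch2.

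Notch3, a receptor best known from vascular smooth muscle and from immature thymocytes, gave 49, 12, 20 and 19 counts, or 0.5001, 0.258, 0.239 and 0.162 TPM. Replicate 1 was the highest, at 3.08 times the lowest. Notch4, a receptor of endothelium, gave 15, 10, 6 and 4 counts, or 0.153, 0.214, 0.0715 and 0.0341 TPM. Both low receptors were higher in replicates 1 and 2, the libraries with Ddx3y, than in 3 and 4, on few counts, and the part that the difference between these libraries has in the values was not tested. Notch1 made up 63.0 ± 1.64% of the summed TPM of the 4 receptors, Notch2 36.7 ± 1.66%, Notch3 0.202 ± 0.0935% and Notch4 0.0836 ± 0.0586% (SD, n = 4).

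Rbpj, the gene of the protein through which all 4 receptors act on DNA, stood beside Notch2. It was at 49.0, 46.9, 47.7 and 45.3 TPM in replicates 1 to 4, with a mean of 47.2 ± 1.54 TPM. The 4 libraries overlapped the range of Notch2, and the difference of Notch2 minus Rbpj on the log2(TPM + 1) scale was 0.13 ± 0.10, less than 2 SD. Rbpj (ENSMUSG00000039191, chromosome 5, 53466152 to 53657362) shares 10.6% of its 50-base words with other genes, among them the pseudogene Rbpj-ps3. Read pairs that map to several places are not counted, and 25814 read pairs over the 4 libraries were counted at Rbpj, against 341 at Rbpj-ps3.

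**Figure D1:**
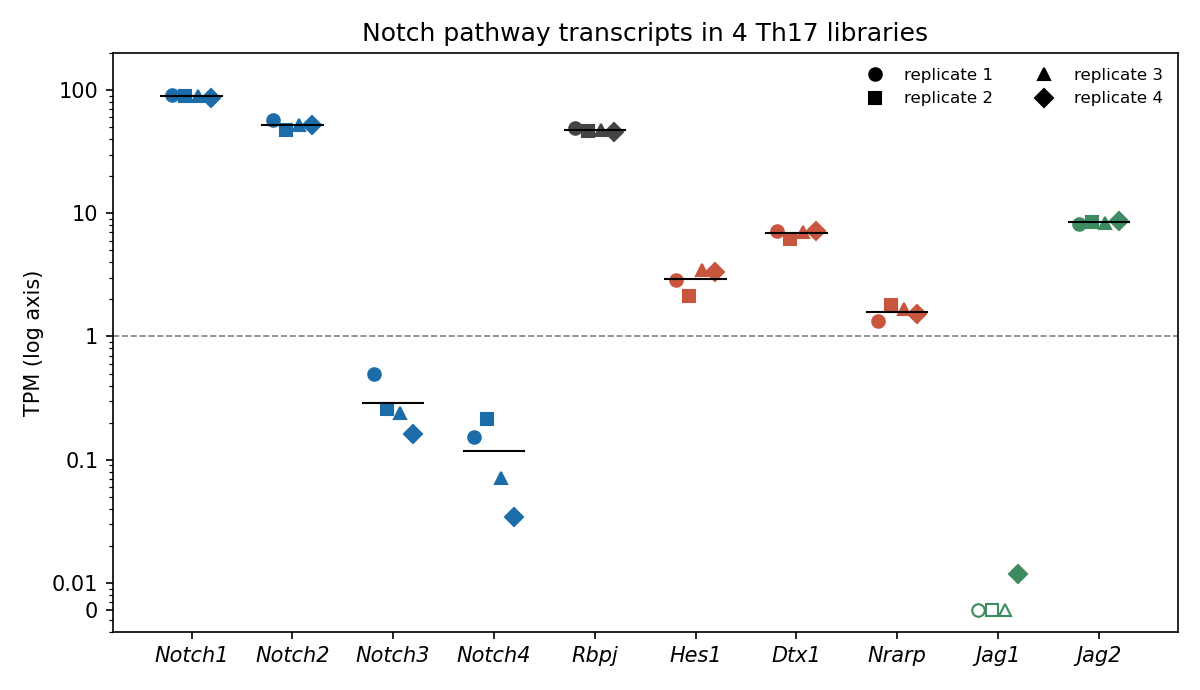
TPM (log axis) of the 10 genes in each of the 4 Th17 libraries, with receptors and Rbpj left, then targets and ligands; marker shapes give the replicate, black bars the mean, open markers a value of 0 and the dashed line 1 TPM. Notch1, Notch2 and Rbpj lie between 45.3 and 91.9 TPM, Dtx1, Hes1, Nrarp and Jag2 between 1.34 and 8.69 TPM, and Notch3, Notch4 and Jag1 at or below 0.5001 TPM.

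The 3 target genes were far lower than the receptors and Rbpj. Dtx1, which codes for the ubiquitin ligase Deltex 1, a Notch target and T cell anergy factor, was at 7.24, 6.23, 6.98 and 7.22 TPM in replicates 1 to 4, a mean of 6.92 ± 0.474 TPM. Hes1, a basic helix-loop-helix repressor and the classical Notch target, was at 2.86, 2.12, 3.49 and 3.34 TPM, with replicate 2, the lowest also in those Th17 genes, again the lowest and a mean of 2.95 ± 0.616 TPM. Nrarp, a small ankyrin repeat protein that binds the Notch complex and limits its activity, was at 1.34, 1.81, 1.67 and 1.52 TPM, a mean of 1.58 ± 0.204 TPM from 42, 27, 45 and 57 counts. The order Dtx1, Hes1, Nrarp was the same in each of the 4 libraries, and Dtx1 was 2.00 to 2.94 times Hes1 and 3.45 to 5.42 times Nrarp. An antisense gene of M13, Gm38287, covers most of Nrarp on the other strand, and it had no count in any library under stranded counting.

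The start region of Nrarp is given to set beside those of the receptors, again for bases -250 to -31.

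Nrarp, chr2:25180508-25180727, plus strand: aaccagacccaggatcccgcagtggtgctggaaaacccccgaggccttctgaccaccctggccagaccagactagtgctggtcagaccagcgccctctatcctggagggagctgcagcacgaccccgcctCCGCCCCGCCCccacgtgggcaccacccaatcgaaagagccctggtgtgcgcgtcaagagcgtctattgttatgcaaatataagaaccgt

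It holds 13 CG dinucleotides and 2 overlapping GC box matches, in capitals, and the letters TGGGAA are not in this stretch on either strand.

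Of the ligands, Jag2 was expressed and Jag1 was not detected beyond 1 read pair. Jag2 (ENSMUSG00000002799, chromosome 12, 112908590 to 112929495) was at 8.24, 8.48, 8.39 and 8.69 TPM, with a mean of 8.45 ± 0.187 TPM. Its CV between libraries of 2.22% was the lowest of the 10 genes, below the 5.21% that counting error alone would give at its counts. Jag1 (ENSMUSG00000027276, chromosome 2, 137081456 to 137116644) had 0, 0, 0 and 1 counts. Per exon length Jag2 was 2117 times Jag1, with an exact 95% interval from 379 to 83681 that covers counting error only. The Delta-like ligand genes were also near 0, with 1 count over the 4 libraries for Dll1, 10 for Dll3 and 12 for Dll4, so Dll3, the highest of them, averaged 0.0880 ± 0.0358 TPM. Among the 5 ligand genes, Jag2 was the one above 1 TPM.

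Each gene's level was set against 1 TPM with edgeR's quasi-likelihood test, and 7 of the 10 lay above it and 3 below. Over all 21764 protein-coding genes, 45.9% lay above and 51.5% below by the same test, with Benjamini-Hochberg adjustment at 0.05. The median of the 10 mean levels was 4.94 TPM, and that of all genes tested 0.411 TPM. The adjusted p-values from edgeR were 6.36e-04 for Nrarp and 2.03e-26 for Hes1 above 1 TPM, and 3.69e-12 for Notch3, 2.90e-11 for Notch4 and 8.29e-13 for Jag1 below it. These p-values rest on a dispersion shared between genes and say little of how far any single gene varied. DESeq2's Wald test, which placed 67.9% of 14060 genes above and 8.42% below, put 6 of the 10 above and 1 below. It did not make the calls of Nrarp (adjusted p = 0.353), Notch3 (adjusted p = 0.249) and Notch4 (adjusted p = 0.189). The calls by limma-voom, which placed 45.9% of all genes above and 51.9% below, were those of edgeR for all 10.

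In descending order of mean TPM the genes were Notch1, Notch2, Rbpj, Jag2, Dtx1, Hes1, Nrarp, Notch3, Notch4 and Jag1. In 6 of the 9 neighbouring pairs the higher gene was higher in all 4 libraries and the mean difference in log2(TPM + 1) exceeded 2 SD. The largest step was that of Rbpj minus Jag2, at 2.35 ± 0.07, followed by Dtx1 minus Hes1 at 1.01 ± 0.17 and Nrarp minus Notch3 at 1.01 ± 0.25 (SD, n = 4). Notch1 minus Notch2 was 0.77 ± 0.10, Hes1 minus Nrarp 0.60 ± 0.30 and Jag2 minus Dtx1 0.26 ± 0.10. Hes1 minus Nrarp lay almost at the limit of 2 SD, with 0.153 in replicate 2 against 0.725, 0.748 and 0.786 in replicates 1, 3 and 4. The 3 pairs not apart by this rule were Notch2 and Rbpj, Notch3 and Notch4 with a difference of 0.20 ± 0.14, and Notch4 and Jag1 with 0.15 ± 0.11. In all 9 pairs the exact two-sided sign-flip permutation test over 4 libraries gave p = 0.13, the same after adjustment over the 9 pairs and the smallest this test allows, so none could pass 0.05.

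The order depends on the length by which counts are divided. The merged exons of Rbpj span 12750 bases and its longest protein-coding transcript in GENCODE M21 5485 bases, against 14232 and 9488 bases for Notch1 and 10782 and 10500 bases for Notch2. With the longest transcript of every gene, an alternative chosen after seeing the data, Rbpj averaged 79.2 ± 2.57 TPM and Notch2 38.5 ± 2.92 TPM, so the order of these 2 turned round, and Notch1 at 96.5 ± 2.68 TPM was 2.37 to 2.77 times Notch2. Dtx1 at 6.52 ± 0.448 TPM then stood above Jag2 at 4.84 ± 0.108 TPM. For Jag2, however, the M21 transcript of 5106 bases is longer than the merged M13 exons of 4054 bases in which read pairs were counted. Its value under this length is thus divided by bases that were not counted, and the turn of Jag2 and Dtx1 carries that limit. Nrarp, at 1.14 ± 0.147 TPM on that scale, was no longer called above 1 TPM (edgeR adjusted p = 0.361). The median protein-coding gene of at least 1 TPM shifted by -0.16 on the log2 scale under this length, Rbpj by 0.75 and Jag2 by -0.80.

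**Figure D2:**
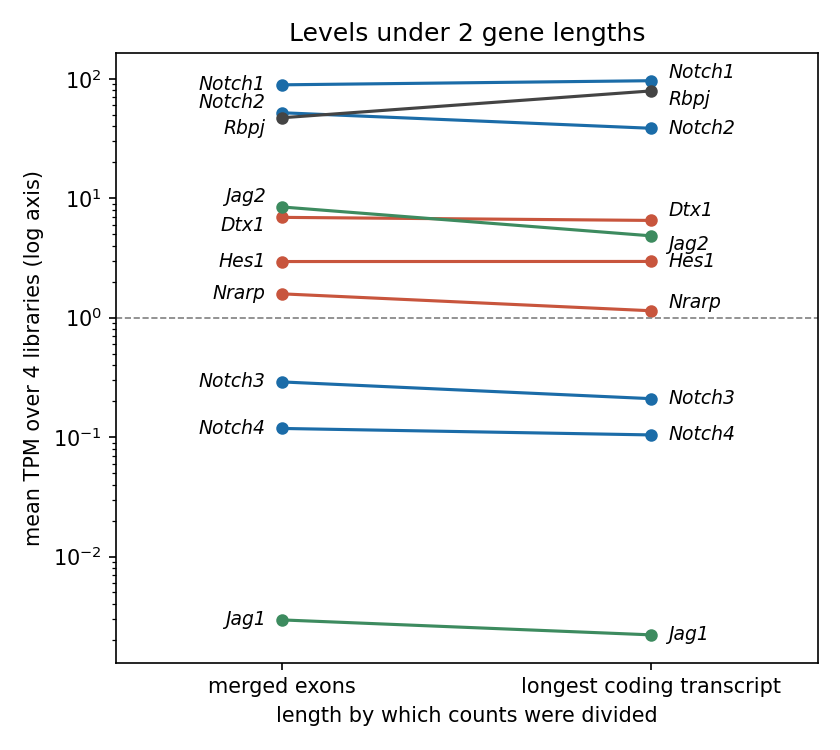
Mean TPM over 4 libraries (log axis) of the 10 genes when counts are divided by the merged exon length or by the longest coding transcript, with lines joining the 2 values of a gene and the dashed line at 1 TPM. Rbpj moves to 79.2 TPM, above Notch2 at 38.5 TPM, and Dtx1 moves above Jag2.

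Variation between libraries was tested for the 8 genes whose mean count reached 10, and 0 of them were called beyond the dispersion trend (edgeR negative binomial deviance, adjusted over 11171 genes). By this test 56 of all genes, or 0.501%, were called, and DESeq2 marked 64 genes as dispersion outliers and 0 of the 8. Before adjustment 2 of the 8 passed 0.05, as did 5.28% of all genes, and these were Notch2 (edgeR adjusted p = 0.771) and Notch3 (edgeR adjusted p = 0.695). The CV of Notch2, 7.59%, compares with a median of 4.16% over 1254 genes within 1.25 times its level, and that of Notch1, 2.80%, with 3.73%. The deviance of Notch3 was 9.54 over the 4 libraries and 1.23 without replicate 1, and that of Notch2 was 8.95 over the 4 libraries and 1.97 without replicate 2. Notch4 and Jag1 had too few counts for the test.

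**Figure D3:**
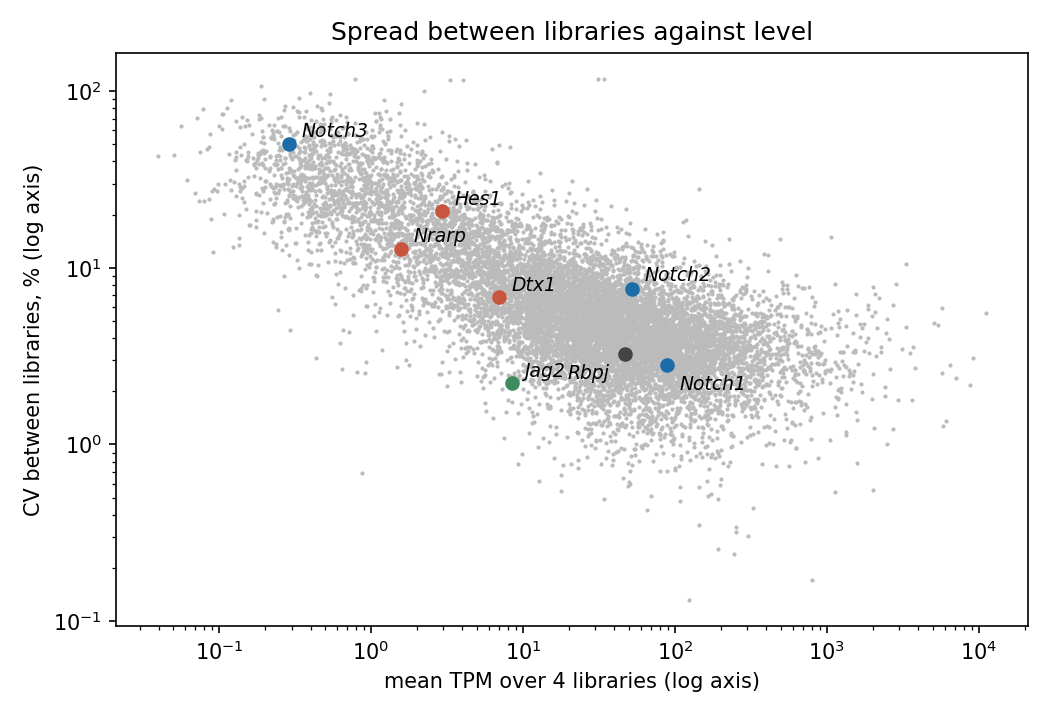
Coefficient of variation between the 4 libraries in percent against mean TPM, both on log axes, for protein-coding genes whose mean count reached 10 (grey) and 8 Notch pathway genes (coloured). Notch1 and Rbpj, at 2.80% and 3.26%, lie in the lower part of the cloud at their level, Notch2 at 7.59% in the upper part, and Jag2 at 2.22% near its lower edge.

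Other genes of the pathway were counted from lists by role. Of 71 genes in 9 lists, 51 lay above 1 TPM by edgeR's test, 19 below and 1 on neither side, and the median of their mean levels was 25.7 TPM. By the same test 45.9% of all protein-coding genes lay above and 51.5% below, with a median of 0.411 TPM. DESeq2 placed 51 of the 71 above, 4 below and 13 on neither side, with no p-value for 3. The calls by list given next are edgeR's. The enzymes that modify and cut the receptor were nearly all expressed. All 5 genes of receptor glycosylation were above 1 TPM, led by the Fringe genes Mfng at 113 ± 4.18 TPM and Lfng at 67.3 ± 2.77 TPM, whose enzymes extend O-fucose and change ligand preference. Poglut1, an O-glucosyltransferase, was at 39.3 ± 2.48 TPM, and the O-fucosyltransferase gene Pofut1 was the lowest at 25.7 ± 0.755 TPM. Of 10 protease genes 8 were above, with Furin, which cuts the receptor on its way to the surface, at 384 ± 6.92 TPM and Adam10, the main protease of the ligand-dependent cut, at 104 ± 3.38 TPM. The gamma-secretase subunit genes Aph1b and Aph1c were below, and Aph1c was the lowest at 0.156 ± 0.110 TPM, while their paralog Aph1a was at 34.4 ± 2.78 TPM.

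Nuclear partners of RBPJ were mostly above 1 TPM, in 6 of 7 coactivator genes and 11 of 12 corepressor genes. Snw1, whose protein SKIP binds the Notch complex and is also a splicing factor, was at 224 ± 3.09 TPM, the acetyltransferase genes Kat2a and Ep300 at 93.9 ± 2.30 TPM and 37.3 ± 1.69 TPM, and Maml3, a Mastermind-like coactivator gene, was the one below at 0.812 ± 0.111 TPM. Its paralogs Maml1 and Maml2 were at 22.4 ± 1.10 TPM and 25.8 ± 1.67 TPM. Among corepressors Ctbp1 led at 164 ± 7.56 TPM, Hdac1 stood at 142 ± 2.54 TPM and Hdac3 at 94.0 ± 3.33 TPM, and Bend6 was the one below at 0.0936 ± 0.0849 TPM. These proteins also serve many other transcription factors.

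In the endocytosis and turnover list 7 of 10 genes were above 1 TPM and 3 below. The ubiquitin ligase genes Itch and Fbxw7, whose proteins act on the receptor and its freed part, were at 39.5 ± 0.752 TPM and 35.0 ± 1.86 TPM. Mib1, which ubiquitinates ligands in the cell that presents them, was at 32.8 ± 1.70 TPM. Neurl1a was the lowest, with 3 counts over the 4 libraries.

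Relatives of Hes1 and Dtx1 differed from them in level. In the Hes and Hey list 1 of 8 genes was above 1 TPM, 6 below and 1 on neither side. Hes6, which is related to Hes1 and can oppose it, was at 26.2, 28.3, 19.5 and 24.4 TPM in replicates 1 to 4, between 5.59 and 13.3 times Hes1 in the same library. Hes5 was next at 0.567 ± 0.0807 TPM (edgeR adjusted p = 0.0742) and Hey1 at 0.368 ± 0.166 TPM, while Hes2, Hes7 and Heyl had no count, and for Heyl a limit of 3 counts in all 4 libraries together corresponds to 0.0137 TPM. Of the other Deltex genes Dtx3 at 26.6 ± 1.81 TPM, Dtx3l at 19.6 ± 0.607 TPM and Dtx2 at 12.2 ± 0.435 TPM were each higher than Dtx1, and Dtx4 was at 0.243 ± 0.124 TPM.

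Genes reported elsewhere as Notch targets in T lineage cells were high as a list, with 10 of 12 above 1 TPM. Myc, Il2ra and Cdkn1a led it at 753 ± 26.1 TPM, 561 ± 33.7 TPM and 545 ± 43.4 TPM, and these genes also respond to many other signals of T cell activation. Ptcra, the gene of the pre-T cell receptor alpha chain and a Notch target in thymocytes, gave 0.896, 0, 0.0749 and 0 TPM in replicates 1 to 4. Replicate 1 held 14 of its 15 counts. Of 5 thymocyte markers, a list added after these values were seen (Rag1, Rag2, Dntt, Ptcra, Cd8a), edgeR called 0 above 1 TPM, 4 below and Dntt on neither side, and DESeq2 also called 0 above. Over all protein-coding genes edgeR placed 45.9% above and 51.5% below. Dntt was at 0.193, 1.22, 0.361 and 0.968 TPM and Cd8a at 0.0451, 0.0950, 0.132 and 0.132 TPM in replicates 1 to 4, Rag1 had 4 counts, all in replicate 4, and Rag2 had none. Dntt was lowest in replicate 1, where Ptcra and Notch3 were highest, while Cd8a rested on 2, 2, 5 and 7 counts. The summed level of the list, which includes Ptcra, was 0.568 to 1.31 TPM and highest in replicate 2. The part of thymocytes in these values was not tested. Ifng was the lowest of the reported targets at 0.230 ± 0.222 TPM.

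**Figure D4:**
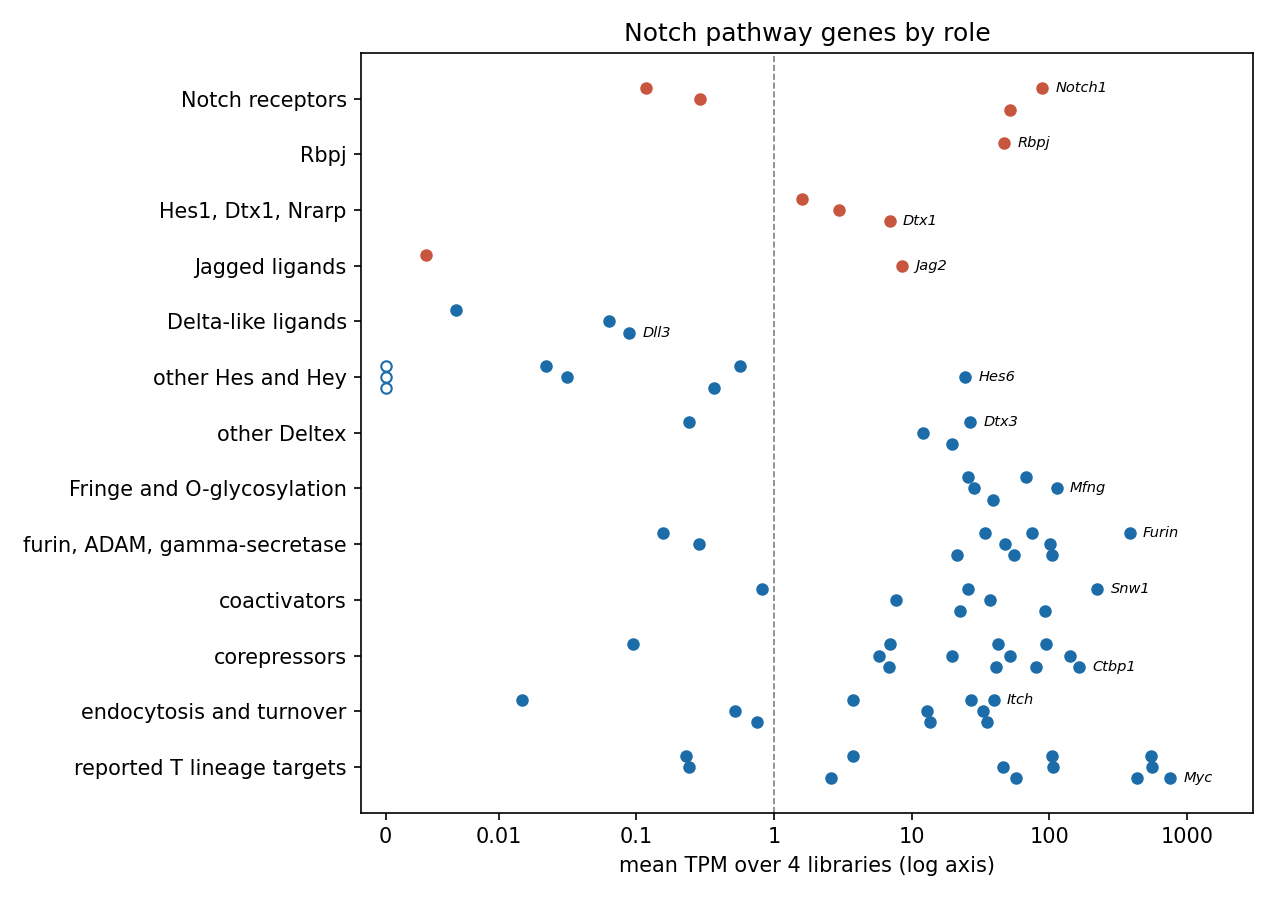
Mean TPM over 4 libraries (log axis) of each gene in the receptor, Rbpj, target and Jagged groups (red) and in 9 further lists of the pathway (blue), with the highest gene of each row named, open markers for genes with no count and the dashed line at 1 TPM. Protease, coactivator and corepressor genes lie mostly between 5.76 and 384 TPM, while the Delta-like ligands and most Hes and Hey genes lie below 1 TPM.

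Markers of cells that carry Notch genes were read beside these levels, with calls by edgeR. DESeq2 called fewer of them below 1 TPM: 1 endothelial, 1 stromal or epithelial, 1 dendritic cell or macrophage and 3 B cell genes. Over all protein-coding genes tested, edgeR placed 51.5% below 1 TPM and DESeq2 8.42%. Of 7 endothelial genes, Cdh5, Tie1 and Vwf had no count and Kdr had 3, while Egfl7 was at 9.78 ± 0.623 TPM and Pecam1, which T cells also express, at 11.2 ± 0.577 TPM, for a summed level of 20.6 to 21.9 TPM. Of 8 stromal and epithelial genes 7 were below 1 TPM, and Col1a2, Col3a1 and Krt8 had no count. Epcam, at 1.54 ± 0.177 TPM, was above by edgeR (adjusted p = 0.00376) and not by DESeq2 (adjusted p = 0.393). It gave most of the sum of 1.48 to 2.25 TPM. Of 8 dendritic cell and macrophage genes 7 were below, with H2-Aa, Lyz2 and Csf1r at no count, and Cd74 alone gave most of the sum of 22.04 to 31.4 TPM. All 6 B cell genes were below, with a sum of 0.189 to 1.06 TPM. Of the CD8 genes Cd8a was at 0.101 ± 0.0412 TPM and Cd8b1 at 14.4 ± 1.4 TPM. The part of such cells in the levels of the Notch genes was not tested.

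The protein-coding genes outside these lists whose levels were nearest over the 4 libraries were found by Euclidean distance in log2(TPM + 1). For Notch1 they were Ap1g1 at a distance of 0.0338, Ak6 at 0.0443 and Man1a at 0.0452. For Rbpj they were Hnrnpll at 0.0284, Srbd1 at 0.0388 and Gapvd1 at 0.0409, and for Dtx1 Dnajc25 at 0.0725, Rad51b at 0.0881 and Zfp750 at 0.0911.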

How the data were processed

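The deposited values are raw counts of read pairs per gene, which the authors obtained, per the file headers, from featureCounts 1.4.6-p4 with the mm10 exons of GENCODE M13, counting reverse-stranded pairs with both ends mapped and no multi-mapping pairs. How the reads were aligned was not examined. Symbols came from GENCODE M21 by Ensembl identifier, for 50376 of 50600 genes, and upstream sequences from RefSeq (GRCm38). TPM was computed from the deposited counts and merged exon lengths. Each level was compared with 1 TPM by edgeR 4.0.16 under R 4.3.3 (quasi-likelihood F test of the intercept, all protein-coding genes, Benjamini-Hochberg, 0.05), and variation by negative binomial deviance at the trended dispersion after TMM normalization. DESeq2 1.42.0 and limma 3.58.1 were alternatives. Both tests were tested on simulated data. P-values concern only these 4 libraries, and those of edgeR's level and variation tests rest on a dispersion shared between genes. The alternatives were other tools, levels, filters, pseudocounts and lengths, and leaving out each library. The 6 pairs of libraries differed by a chi-square per degree of freedom of 4.36 to 11.4, more than sampling noise. The named genes are the 10 members, the 3 highest and the lowest gene of each pathway list, all genes of lists of 4 or fewer, and the nearest genes of 3 members; others were named after their values were seen, and some genes of the lists are not reported here by name. The members and lists were chosen with earlier results of these data known. Intervals and limits cover counting error only.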

Additional observations from a re-analysis of the deposited data

Results flagged for a closer look

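Of 78 genes of the pathway examined for 1 library standing apart from the other 3 by Dixon's criterion, 8 were marked. The criterion marks about 1 in 20 where values follow a normal distribution, which genes near 0 do not. A gene with counts in 1 library alone is always marked, so no excess over chance can be read from the 8. In 5 the gene is near 0 and a few counts in 1 library set the mark: Jag1 at 0.0118 TPM in replicate 4, Dll1 at 0.0195 TPM and Hey2 at 0.1251 TPM in replicate 1, Hes3 at 0.0882 TPM in replicate 2, and Ptcra at 0.896 TPM in replicate 1. The other 3 are expressed genes with small ranges: Adam17 was highest in replicate 1 at 57.9 TPM, Snw1 highest in replicate 3 at 229 TPM, and Hdac3 lowest in replicate 3 at 89.1 TPM. None of these 3 passed the adjusted variation test.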

How the results depend on the processing

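No paired analysis was possible because all libraries belong to 1 group. The genes placed below 1 TPM numbered 3, but 1 by the Wald test of DESeq2 and 1 where genes needed a mean count of 10, which leaves Notch4 and Jag1 untested. The sign of Nrarp turned against a level of 2 TPM, with a log2 value of -0.36. With a pseudocount of 0.1, differences grew to 2.47 for Rbpj minus Jag2, 1.22 for Dtx1 minus Hes1, 2.17 for Nrarp minus Notch3, 0.85 for Notch3 minus Notch4 and 1.01 for Notch4 minus Jag1. With the longest transcript as length, chosen after seeing the data, Notch2 minus Rbpj reversed to -1.02 and Jag2 minus Dtx1 to -0.36, Notch1 minus Notch2 was 1.30 and Rbpj minus Jag2 3.78. The shares of Notch1 and Notch2 in receptor transcripts were 71.3% and 28.5% with that length and 69.2% and 30.6% without division by length. Of the comparison values recomputed, 112 were taken as the same, 11 moved by at least the spread, 2 reversed and 2 were weaker. A count of genes called was taken as the same when it changed little. The 112 thus hold the 6 of 10 genes above the level with DESeq2, at 2 TPM and with the longest transcript, where the call of Nrarp was lost. All values that left out 1 library were among the 112. Depth limits the values of Notch3, Notch4, Jag1 and the Delta-like genes, at 1 to 100 counts over the 4 libraries, and of several Hes and Hey genes with 0 to 7 counts.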
